A study of Mus musculus with 24 samples.

Results

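The genes of cholesterol and fatty acid synthesis were described in single nuclei of mouse brain: 32 named genes of the 32288 in the deposited matrices, chosen by symbol for their place in these pathways. They comprise 10 genes of sterol synthesis up to squalene (Acat2, Acat3, Hmgcs1, Mvk, Pmvk, Mvd, Idi1, Fdps, Ggps1 and Fdft1), 10 that carry squalene to cholesterol (Sqle, Lss, Cyp51, Tm7sf2, Msmo1, Nsdhl, Hsd17b7, Ebp, Sc5d and Dhcr7), 6 of regulation and transport (Srebf1, Srebf2, Scap, Insig1, Insig2 and Stard4) and 6 of fatty acid synthesis (Fasn, Acly, Acaca, Scd1, Scd2 and Elovl6). Ggps1 is on a side branch, to geranylgeranyl lipids, and is only grouped with the genes up to squalene. Nuclei came from 12 mice of strain B6.Pdgfbtm3Cbet, 6 homozygous for the ret allele of Pdgfb (ret/ret, called mutant) and 6 heterozygous (ret/wt, called control), each brain giving a library of deep brain regions, where vessels calcify in the mutant, and a library of cortical regions, where they do not. The ret allele lacks the motif that retains PDGF-B, the growth factor that recruits pericytes, near the cells that secrete it. It was carried in every cell from conception, controls carried it on 1 of their alleles, and no wild-type mouse was among the samples. Mutant and control mice 1 to 4 were aged 5 months 3 days, 5 months 0 days, 5 months 18 days and 4 months 24 days. Mutant mouse 5 and control mouse 6 were aged 4 months 7 days, and mutant mouse 6 and control mouse 5 were aged 4 months 9 days. Control mouse 6 was the only male, the 11 others being female. The description of the treatment in the labels gives 5 months for all mice, and the ages used here are those given for each sample. The deletion is a short stretch of Pdgfb that counts per gene cannot show.

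Cholesterol hardly crosses the blood-brain barrier, so the brain makes its own. Oligodendrocytes need it for myelin, and astrocytes make it for themselves and for export to neurons on lipoprotein particles. When sterol in the endoplasmic reticulum is low, Scap carries the precursors of the SREBP transcription factors (Srebf1 and Srebf2) to the Golgi, where they are cut and released to the nucleus, and when sterol is high the Insig proteins hold Scap back. SREBP-2 acts mostly on sterol genes and SREBP-1 mostly on fatty acid genes, on DNA that they share with the CCAAT-binding factor NF-Y and with Sp1. Insig1 and Stard4 are themselves targets.

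Sequences upstream of the transcription start are given for 5 sterol genes whose level varied between astrocyte libraries and for 2 genes that varied little. Start sites of RefSeq (GRCm38.p6) were found for 25 of the 32 genes, and the 250 bases before each start were searched on both strands. Some genes have several starts, the 25 genes having 33 windows and all 27025 genes 32851. A gene was counted if any of its windows held the motif, so the match need not be in the window printed. CCAAT, the NF-Y motif, was present before 20 of the 25 genes and before 37.5% of 27025 genes in all. By role, 6 of 7 genes up to squalene, 9 of 9 from squalene to cholesterol, 4 of 5 of regulation and transport and 1 of 4 of fatty acid synthesis held it. GGGCGG, the Sp1 motif, was present before 20 of 25 genes and 35.4% of all, and CACGTG before 5 of 25 and 6.86%. TCACNCCAC, one written form of the sterol response element, was found before Hmgcs1 alone, against 1.22% of all genes. A match is a run of letters and no measurement of binding, and a window without one says only that these letters are not in it. The windows below read 5′ to 3′ on the strand of the gene, and capitals mark CCAAT or its reverse complement and, before Hmgcs1, TCACNCCAC. Hmgcs1, Mvd, Mvk, Nsdhl and Sc5d, all sterol enzymes, differed at least 1.97-fold between their lowest and highest astrocyte libraries of the deep brain, and Ggps1 and Scap by 1.48-fold and 1.44-fold. Ggps1, flat between libraries, held 3 CCAAT motifs, and the window of Scap held none. Their places are Hmgcs1 chr13:119690101-119690350, forward strand; Mvd chr8:122443423-122443672, reverse strand; Mvk chr5:114444019-114444268, forward strand; Nsdhl chrX:72918271-72918520, forward strand; Sc5d chr9:42264301-42264550, reverse strand; Ggps1 chr13:14063489-14063738, reverse strand; Scap chr9:110333038-110333287, forward strand.
Hmgcs1: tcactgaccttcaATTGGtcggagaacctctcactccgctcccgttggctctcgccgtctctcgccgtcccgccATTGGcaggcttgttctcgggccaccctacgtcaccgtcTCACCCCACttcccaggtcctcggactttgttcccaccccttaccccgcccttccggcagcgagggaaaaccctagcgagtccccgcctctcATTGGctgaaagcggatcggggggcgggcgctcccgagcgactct
Mvd: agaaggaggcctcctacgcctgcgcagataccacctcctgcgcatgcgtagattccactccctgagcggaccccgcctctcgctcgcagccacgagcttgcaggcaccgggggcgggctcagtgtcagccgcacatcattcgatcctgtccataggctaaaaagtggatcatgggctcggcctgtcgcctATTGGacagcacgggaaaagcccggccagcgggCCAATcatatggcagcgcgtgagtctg
Mvk: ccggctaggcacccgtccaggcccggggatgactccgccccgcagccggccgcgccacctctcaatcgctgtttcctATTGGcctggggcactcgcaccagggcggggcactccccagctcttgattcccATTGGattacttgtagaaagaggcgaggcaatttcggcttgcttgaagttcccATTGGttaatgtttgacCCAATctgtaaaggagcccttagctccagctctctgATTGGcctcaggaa
Nsdhl: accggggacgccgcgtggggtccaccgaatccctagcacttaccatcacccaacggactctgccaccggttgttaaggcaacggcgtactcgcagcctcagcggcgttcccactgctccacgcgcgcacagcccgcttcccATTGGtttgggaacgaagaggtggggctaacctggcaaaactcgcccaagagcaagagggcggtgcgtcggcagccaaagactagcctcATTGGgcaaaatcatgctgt
Sc5d: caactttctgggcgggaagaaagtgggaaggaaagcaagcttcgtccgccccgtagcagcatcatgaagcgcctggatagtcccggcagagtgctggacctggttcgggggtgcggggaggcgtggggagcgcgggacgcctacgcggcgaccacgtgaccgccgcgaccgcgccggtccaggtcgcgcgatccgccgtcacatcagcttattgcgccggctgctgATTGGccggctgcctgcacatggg
Ggps1: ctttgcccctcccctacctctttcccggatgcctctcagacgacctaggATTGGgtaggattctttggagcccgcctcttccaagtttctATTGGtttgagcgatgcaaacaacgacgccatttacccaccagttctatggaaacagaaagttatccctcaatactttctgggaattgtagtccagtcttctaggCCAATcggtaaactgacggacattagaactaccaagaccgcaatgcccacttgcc
Scap: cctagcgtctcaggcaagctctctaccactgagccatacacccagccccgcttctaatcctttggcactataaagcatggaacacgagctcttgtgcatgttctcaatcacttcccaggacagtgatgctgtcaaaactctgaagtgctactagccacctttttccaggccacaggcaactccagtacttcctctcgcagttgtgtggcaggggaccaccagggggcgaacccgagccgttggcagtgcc

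The 12 deep brain libraries held 124958 nuclei after filtering, with 62996158 to 91910439 UMIs (unique molecular identifiers, each a counted RNA molecule) per library. The 12 cortical libraries held 79967 nuclei and 16227618 to 94276997 UMIs, and 7 of them (control mice 1, 3 and 4 and mutant mice 1 to 4) had a median under 1500 UMIs per nucleus. Clusters were built without the 32 genes and named from marker genes, which left 9339 deep brain and 41372 cortical nuclei unnamed. Unnamed nuclei numbered 549 to 1275 per deep brain library and, far less evenly, 599 to 8688 per cortical library. Astrocytes numbered 595 to 1190 per deep brain library and 28 to 474 per cortical library, oligodendrocytes 1720 to 3057 and 184 to 1920, and neurons 4178 to 6399 and 497 to 7604. Levels are in CPM, UMIs of a gene per 1000000 UMIs of all genes, summed over the nuclei of 1 class in 1 library. The genes drew 4796 (Acat3) to 432618 (Scd2) UMIs over all libraries. CPM is a level per class, and whether a difference lay in the share of nuclei with UMIs of a gene or in the UMIs per nucleus was not tested.

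Astrocytes and oligodendrocytes had the highest summed levels of the 32 genes. In the deep brain of control mice the sum was 3685.8 ± 738.7 CPM in astrocytes, 3512.5 ± 133.9 in oligodendrocytes, 1676.4 ± 166.8 in oligodendrocyte precursor cells, 1321.7 ± 150.3 in neurons and 943 ± 68.4 in microglia (SD, n = 6). Astrocytes and oligodendrocytes overlapped each other, and every library of both was above every library of the other 3 classes. Of the smaller classes, the mean sum over libraries of both genotypes was 2370 CPM in committed oligodendrocyte precursors, 2128 in ependymal cells, 1546 in fibroblasts and 1439.6 in endothelial cells. Over the same libraries, fatty acid synthesis genes summed to 2307.1 CPM in oligodendrocytes and 1441.3 in astrocytes. Most of the oligodendrocyte sum was Scd2, at 1591.1 CPM in control and 1531 in mutant mice. Genes from squalene to cholesterol summed to 436.9 CPM in oligodendrocytes, 504.8 in committed precursors and 809.1 in astrocytes. They summed to 385.8 CPM in precursor cells and 350.0 in neurons, so oligodendrocytes stood less far above these classes for sterol genes.

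Against neurons of the same control libraries, 28 of the 32 genes were higher in deep brain astrocytes and 1 was lower (edgeR quasi-likelihood test, Benjamini-Hochberg adjusted p under 0.05). Of all 15919 genes tested, 37.3% were higher and 41.8% lower, 79.1% in all. The median log2 difference was 1.26 for the 32 genes and -0.0557 for all. Acat3, a cytosolic thiolase at the head of the pathway, differed most, by 6.99 ± 0.10 (log2, SE). Scd1, the stearoyl-CoA desaturase that makes monounsaturated fatty acids, was higher by 3.67 ± 0.13, and Srebf1 by 3.61 ± 0.07. Msmo1, which removes methyl groups from sterols, was higher by 2.53 ± 0.08 and Nsdhl, its partner in that step, by 2.03 ± 0.09. Ggps1, which diverts the pathway to geranylgeranyl lipids, was the gene that was lower, by 0.26 ± 0.06 in size (adjusted p = 0.00074). Insig2, Scap and Elovl6 did not pass the test (adjusted p = 0.27, 0.21 and 0.12). In the cortex 27 of 32 genes were higher in astrocytes than in neurons and 0 lower, where 30.8% of 12393 genes were higher and 34.9% lower.

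Astrocytes and oligodendrocytes differed in which genes stood high. Against deep brain neurons, 23 genes were higher in oligodendrocytes and 3 lower, against 39.4% and 45.1% of all genes, with Scd2, the desaturase of the brain, higher by 3.60 ± 0.09 and Acaca, which makes malonyl-CoA, by 1.66 ± 0.07. The 3 that were lower were Tm7sf2, Lss and Insig2. Against oligodendrocytes, astrocytes were higher for 23 genes and lower for 6, where 33.8% of all genes were higher and 34.5% lower. Of the 20 genes grouped as sterol synthesis, which include Ggps1, 16 were higher in astrocytes and 2 lower. Of the 6 of regulation and transport 4 were higher and 1 lower, and of the 6 of fatty acid synthesis 3 and 3. The sterol enzymes Mvd (2.11 ± 0.17), Tm7sf2 (1.81 ± 0.13), Msmo1 (1.62 ± 0.08) and Nsdhl (1.48 ± 0.09) were among those higher in astrocytes, as log2 differences. The 6 that were lower in astrocytes were Ebp, the sterol isomerase (-1.23 ± 0.11), Scd2 (-0.93 ± 0.08), Acaca (-0.69 ± 0.07), Scap (-0.48 ± 0.07), Elovl6 (-0.43 ± 0.14) and Ggps1 (-0.20 ± 0.07). In libraries of mutant mice this contrast called 15 genes in place of 29, against 67.1% of 16054 genes. In the cortex 22 genes were higher and 3 lower in astrocytes, against 26.8% and 26.1% of all genes.

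Precursor cells were below mature oligodendrocytes for most of the genes. In the deep brain 20 were lower and 3 higher, against 33.1% and 31.8% of all genes, with a median log2 difference of -0.454. Scd2 was lower by -2.15 ± 0.09 on the log2 scale, Scd1 by -1.97 ± 0.20, Insig1 by -1.65 ± 0.15 and Acaca by -1.25 ± 0.07. The 3 higher were Tm7sf2, Elovl6, which lengthens saturated fatty acids, and Sqle, which oxidizes squalene. Elovl6 stood at 206.1 CPM in committed precursors, 173.4 in precursor cells and 114.9 in oligodendrocytes of control mice. Other classes led for single genes by their means, which were not tested against each other. Stard4, a carrier of cholesterol, was at 74.2 CPM in endothelial cells and 33.5 in astrocytes, Insig2 was at 66.0 in fibroblasts and 38.5 in astrocytes, and Srebf1 was at 158.3 in ependymal cells and 130.3 in astrocytes. Endothelial nuclei numbered only 17 to 64 and ependymal nuclei 13 to 43 per library.

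**Figure D1:**
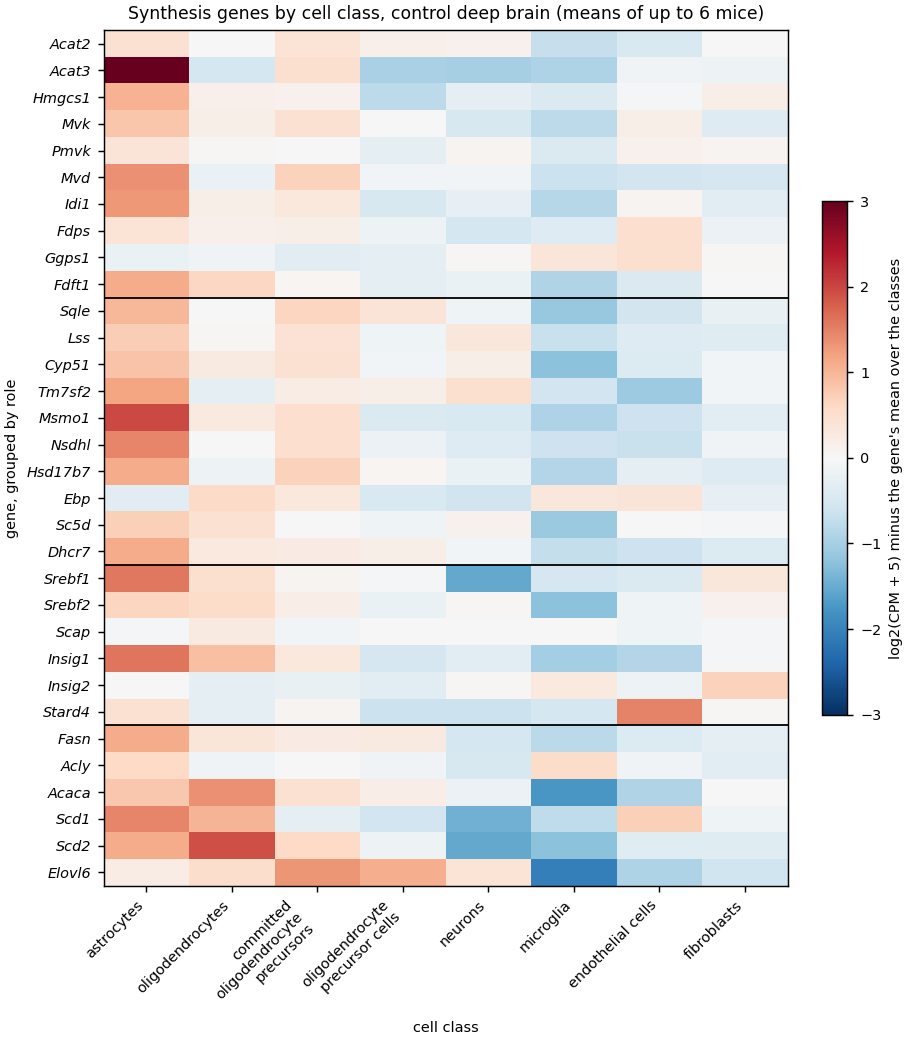
Heat map of the 32 genes (vertical, by role) in 8 cell classes (horizontal) of the deep brain of control mice, as log2(CPM + 5) minus the mean of that gene over the classes. Acat3, Msmo1 and Nsdhl stand out in astrocytes, and Scd2 and Acaca in oligodendrocytes.

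Acat3 was far higher in astrocytes than in the other named classes. It stood at 102.1 CPM in deep brain astrocytes of control mice, 11.1 in committed precursors, 11.8 in ependymal cells, 2.9 in oligodendrocytes, 1.0 in microglia and 0.8 in neurons and in precursor cells. Against oligodendrocytes it was higher by 5.00 ± 0.11 on the log2 scale in the deep brain and by 5.08 ± 0.26 in the cortex, and against cortical neurons by 7.07 ± 0.21. Its paralog and neighbor Acat2 showed no such pattern, with 33.4 CPM in astrocytes, 22.8 in oligodendrocytes and 25.2 in neurons. Acat3 lies at chr17:12923813-12940600 and Acat2 at chr17:12942890-12960747, both on the reverse strand of GRCm38 (GENCODE vM21). As the genes are paralogs, some reads may fit both, and how such reads were counted was not tested. Acat3 overlaps Tcp1 on the other strand. Of the 32 genes, 18 overlap another gene, 13 of them one on the other strand.

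**Figure D2:**
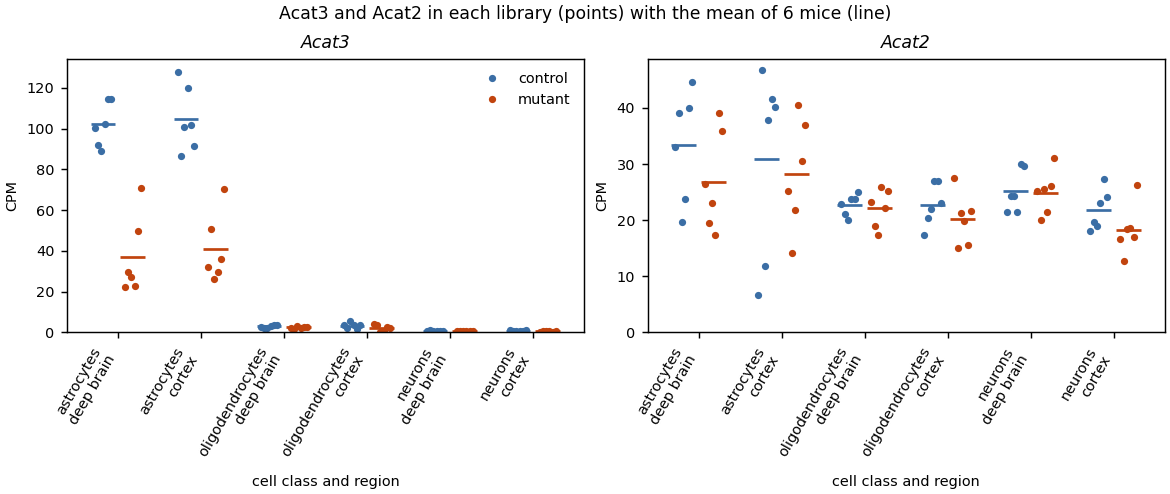
Levels in CPM of Acat3 and Acat2 in each library, for astrocytes, oligodendrocytes and neurons of the deep brain and the cortex, with control and mutant libraries side by side and a line at the mean of 6. Acat3 in astrocytes runs from 88.9 to 114.8 in deep brain control libraries and from 22.2 to 70.6 in mutant ones, while the Acat2 groups overlap.

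Astrocyte libraries differed from each other in these genes more than in other genes. Over the 12 deep brain libraries the median coefficient of variation was 35.5% for the 32 genes and 14.2% for the 8618 genes within the same range of levels. These libraries pool both genotypes, so the spread includes any difference between genotypes, such as that of Acat3 given below. In oligodendrocytes the medians were 17.8% and 14.2% and in neurons 14.4% and 12.3%. The most variable in astrocytes were Mvd (67.0%), which makes isopentenyl diphosphate, Insig1 (59.1%), Hmgcs1 (56.9%), the first committed enzyme, Stard4 (54.2%), Acat3 (53.4%) and Idi1 (52.7%). Insig1 ran from 36.1 to 274.5 CPM, 7.60-fold. The least variable were Srebf1 (8.25%), Insig2 (9.65%), Scap (9.88%) and Ggps1 (10.7%). Thus within the regulators, Insig1 moved widely and Scap, Insig2 and Srebf1 little. Counting error is part of the spread of low genes, since the lowest count in any library was 16 UMIs for Mvd, against 144 for Insig1.

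**Figure D3:**
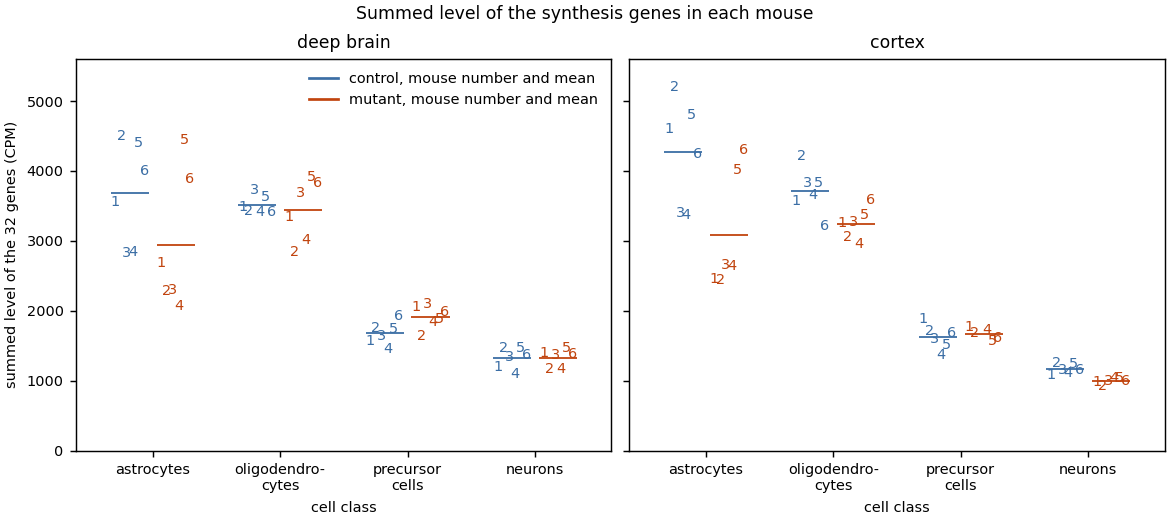
Summed level of the 32 genes in CPM (vertical) by cell class (horizontal) in the deep brain and the cortex, each digit being the number of a mouse, with controls in blue, mutants in red and a line at each mean. In astrocytes the mutant libraries of mice 1 to 4 lie between 2069.1 and 2680.8 in the deep brain, under every control library, and those of mice 5 and 6 lie among the controls.

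The comparison of genotypes asks whether the genes differ between mutant and control mice. In deep brain astrocytes the summed level was 3562.5, 4500.1, 2826.2, 2839.9, 4394.3 and 3991.9 CPM in control mice 1 to 6. It was 2680.8, 2286.7, 2290.5, 2069.1, 4443.4 and 3880.0 CPM in mutant mice 1 to 6. Mutant mice 1 to 4 were below every control and mutant mice 5 and 6 within their range. Of the 32 genes, all tested, Acat3 was lower in mutants and 0 were higher, against 1.78% of 12839 genes lower and 2.98% higher, 4.77% in all. The log2 difference was negative for 27 of 32 genes, with a median of -0.453 against -0.00355 for all genes, and 7 had an unadjusted p under 0.05, against 18.8% of all genes.

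Acat3 stood at 100.3, 91.8, 88.9, 102.3, 114.8 and 114.7 CPM in control mice 1 to 6. In mutant mice 1 to 6 it stood at 22.2, 29.8, 26.9, 22.8, 49.8 and 70.6 CPM. The groups did not overlap, with 102.1 ± 11.0 CPM in controls and 37.0 ± 19.3 in mutants (SD, n = 6), and the log2 difference was -1.51 ± 0.23 (SE, adjusted p = 0.0013). Of 10283 genes of at least 10 CPM, 0.827% lay lower in every mutant library than in every control library. Acat2 overlapped, with 33.4 ± 9.8 CPM in controls and 26.9 ± 8.8 in mutants. The Acat3 difference ranged from -1.96 to -0.91 over the alternative normalizations, tests, filters, clusterings, left-out mice, blocks and age groups, and it was past the threshold in all of them but the fit of the younger mice alone.

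Next by p came Dhcr7, Stard4 and Pmvk. Dhcr7, the reductase of the last step, had control libraries at 38.6, 55.9 and 61.6 CPM (lowest, median and highest) and mutant libraries at 17.3, 31.2 and 55.2, a log2 difference of -0.62 ± 0.21 (adjusted p = 0.11). Stard4 had 18.5, 31.7 and 50.6 CPM in controls and 9.3, 13.6 and 40.4 in mutants, -0.89 ± 0.32 (adjusted p = 0.13). Pmvk, a kinase of the mevalonate steps, had 11.5, 19.6 and 29.4 CPM in controls and 7.9, 12.1 and 20.4 in mutants, -0.58 ± 0.24 (adjusted p = 0.19). All 3 overlapped between genotypes. By role, the median log2 difference was -0.577 for genes up to squalene, -0.42 from squalene to cholesterol, -0.0613 for regulation and transport and -0.257 for fatty acid synthesis. Srebf1 was level between genotypes, at 130.3 ± 14.7 and 131.5 ± 6.4 CPM.

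Because mutant mice 5 and 6 stood apart, a division chosen after the values were seen, the mice were also compared by age: mice 1 to 4 (4 months 24 days or older) and mice 5 and 6 (4 months 9 days or younger). Since the division was drawn from the values of these genes in these libraries, counts and p-values within it describe it and are no independent evidence, in the cortex too. Among the older mice 14 of 32 genes were lower in mutant deep brain astrocytes and 0 higher, against 3.15% of 12875 genes lower and 3.01% higher. The sterol genes among them were Acat3 (-1.96 ± 0.12, adjusted p = 6.6e-06), Mvd (-1.89 ± 0.36), Idi1 (-1.30 ± 0.30), Hmgcs1 (-1.15 ± 0.23), Cyp51, the lanosterol demethylase (-1.13 ± 0.23), Mvk (-1.08 ± 0.22), Msmo1 (-0.96 ± 0.18), Dhcr7 (-0.93 ± 0.19), Nsdhl (-0.87 ± 0.18) and Fdft1, squalene synthase (-0.83 ± 0.18), all as log2 differences. Of the regulators Insig1 (-1.42 ± 0.26) and Stard4 (-1.30 ± 0.27) were lower, and of fatty acid synthesis the desaturases Scd1 (-1.03 ± 0.25) and Scd2 (-0.42 ± 0.11). The median over the 32 genes was -0.821. Srebf1, Scap, Insig2, Ggps1 and Ebp lay between -0.02 and 0.14.

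The libraries show how far the older mice separated. Insig1 stood at 144.9, 227.6, 109.1 and 103.8 CPM in control mice 1 to 4 and at 86.3, 49.6, 53.5 and 36.1 in mutant mice 1 to 4. Msmo1 stood at 359.4, 406.9, 273.9 and 268.1 CPM in those controls and at 201.9, 191.8, 182.7 and 111.4 in those mutants. Mvd stood at 22.8, 37.6, 14.7 and 9.0 CPM in those controls and at 7.1, 4.9, 5.5 and 5.8 in those mutants. For each of the 3 genes every older mutant was below every older control, as for 13 of the 32 genes, against 5.03% of 10221 genes. Controls varied too, mice 3 and 4 being below mice 1 and 2 for all 3. In the younger mice Insig1 was at 274.5 and 245.7 CPM in controls and 247.3 and 237.6 in mutants, and Msmo1 at 375.5 and 306.9 in controls and 448.5 and 289.1 in mutants. Mice 5 and 6 of both genotypes also stood higher for some genes in other deep brain classes. In neurons Insig1 averaged 38.3 CPM in older and 56.2 in younger controls, and 38.4 and 55.4 in older and younger mutants. In oligodendrocytes Hmgcs1 averaged 65.4 and 83.5 CPM in controls and 52.4 and 89.5 in mutants. Oligodendrocyte Scd2 averaged 1668.7 and 1436 CPM in controls, lower in the younger, and 1454.8 and 1683.4 in mutants.

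Among the younger mice, 2 against 2, 0 of 32 genes were called, against 0.207% of 13028 genes, and 9.06% of those genes had an unadjusted p under 0.05. The median was -0.015. Acat3 differed by -0.91 ± 0.17 (adjusted p = 0.088), with both mutants below both controls. The difference between the age groups was itself tested as a genotype by age term, and 0 of 32 genes passed, as did 0 of 13803 genes in all. For Acat3 the term was 1.05 ± 0.22 (adjusted p = 0.42). With age as a term 8 genes were called, against 7.20% of 13476 genes, and leaving out mutant mouse 5 gave 6 called, against 4.29% of 12922 genes, and mutant mouse 6 gave 2, against 8.09% of 12962. Age and anything else that set mice 5 and 6 apart, such as a day of preparation, cannot be told apart. All 7 cortical libraries of low depth were of mice 1 to 4.

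**Figure D4:**
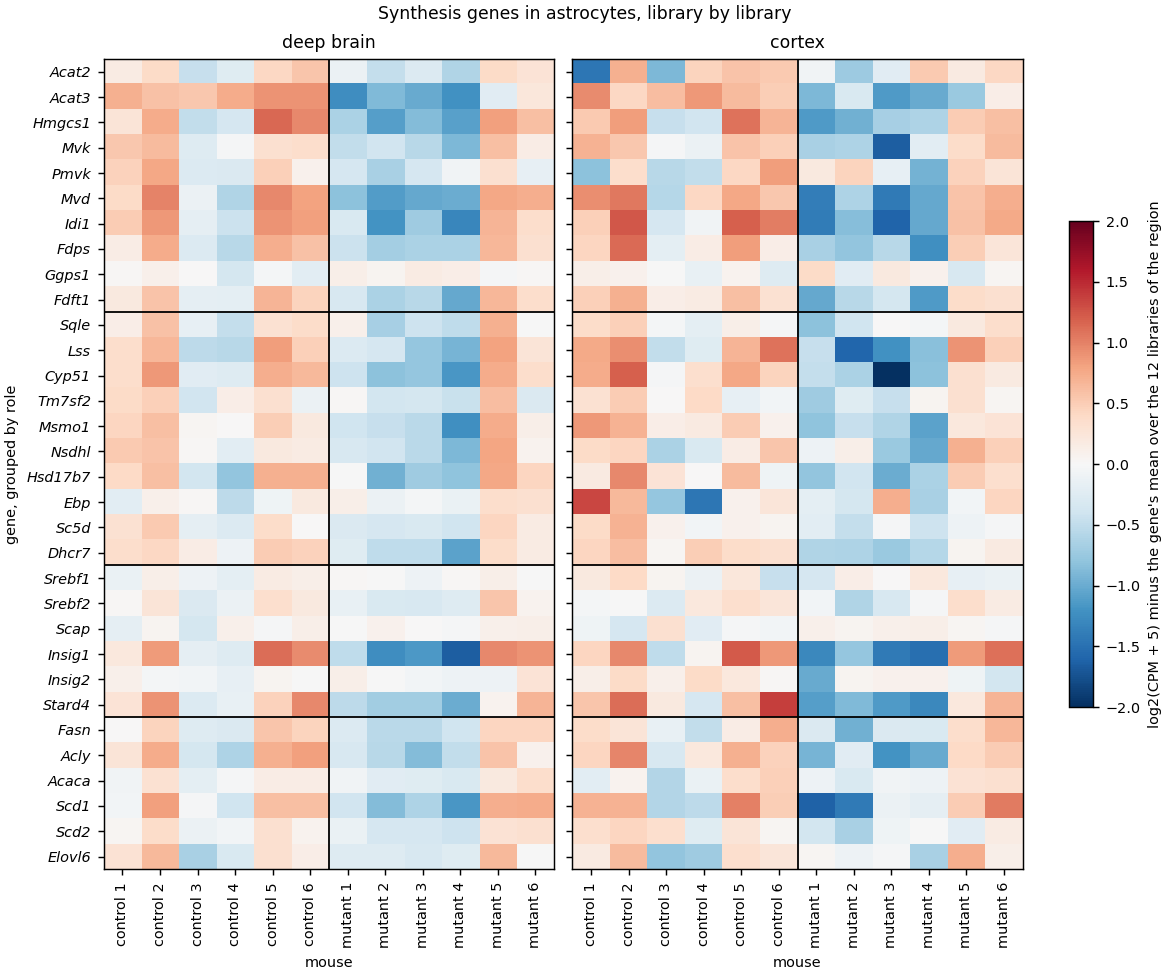
Heat map of the 32 genes (vertical, by role) in the astrocyte libraries of the deep brain and the cortex (horizontal, controls then mutants by mouse number), as log2(CPM + 5) minus the mean of that gene over the 12 libraries of the region. In the deep brain mutant mice 1 to 4 are low for most sterol genes, mutant mice 5 and 6 lie within or above the range of the controls for most of them but below it for Acat3, and Srebf1, Scap, Insig2 and Ggps1 vary little.

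**Figure D5:**
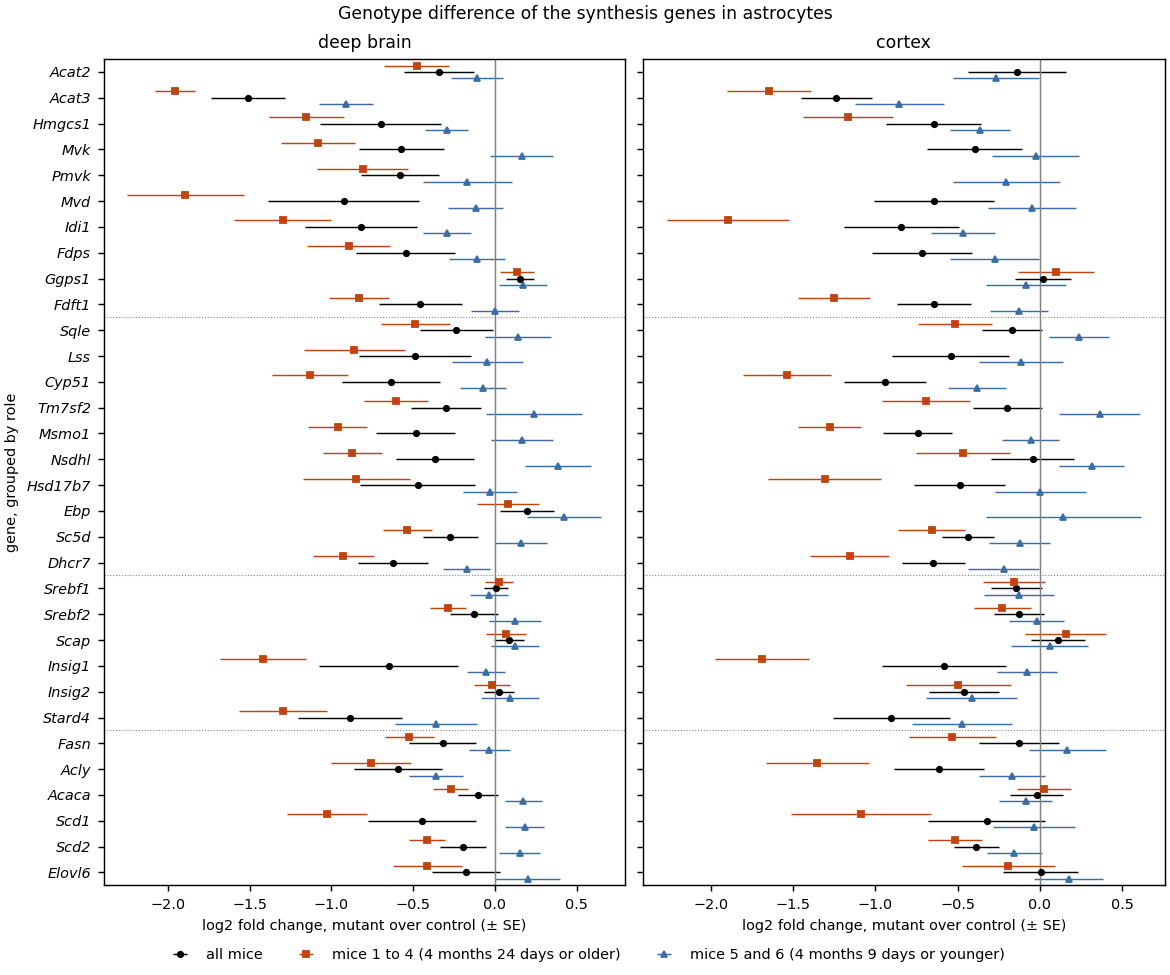
Log2 difference, mutant over control, with its SE for each gene tested in astrocytes of the deep brain and the cortex: all mice as black circles, mice 1 to 4 as red squares, mice 5 and 6 as blue triangles. In the deep brain Acat3 lies at -1.51, -1.96 and -0.91, whereas Insig1, Mvd and Msmo1 are negative in the older mice and nearer 0 in the younger.

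Other markers moved with genotype in the same nuclei. The summed level of telencephalic astrocyte markers was 234.9 to 459.1 CPM in controls and 190.9 to 300.9 in mutants, and one of them, Mfge8, differed by -0.68 ± 0.16 (adjusted p = 0.018). Markers of non-telencephalic astrocytes summed to 1512 to 2182 CPM and 1567 to 2427. Astrocyte markers summed to 8390 to 12357 and 7902 to 9674, precursor cell markers to 160 to 293 and 271 to 453 (Lhfpl3 0.92 ± 0.22, adjusted p = 0.024), microglia markers to 69.6 to 95.6 and 74.6 to 106.9 (C1qa 1.38 ± 0.29, adjusted p = 0.0093), neuron markers to 324 to 555 and 350 to 722, and oligodendrocyte markers to 588 to 905 and 587 to 838. No gene of these lists was at 0 in all libraries. The median share of mitochondrial UMIs in mice 1 to 4 was 0.0495 to 0.0996% in controls and 0.0980 to 0.157% in mutants. The smaller of the 2 clusters that made up the astrocytes held 9.37 to 46.1% of them in controls (median 28.2%) and 12.3 to 26.9% in mutants (median 17.4%). The part of these shifts in the result was not tested beyond those clusters. In the larger cluster Acat3 alone was called (-1.51 ± 0.22, adjusted p = 0.00089), against 4.75% of 12186 genes. In the smaller, 3 were called, against 3.94% of 9687 genes: Acat3 (-1.42 ± 0.20), Idi1 (-1.38 ± 0.32) and Stard4 (-1.23 ± 0.30).

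Cortical astrocytes, from tissue without calcified vessels, gave the same leading gene. Of 30 genes tested (Pmvk and Ebp were too low) Acat3 was lower in mutants and 0 were higher, against 1.92% of 7197 genes in all. Acat3 stood at 127.8, 86.4, 100.9, 120.1, 101.6 and 91.6 CPM in control mice 1 to 6 and at 32.02, 50.9, 26.3, 29.4, 36.0 and 70.4 in mutant mice 1 to 6. The groups did not overlap, as for 0.632% of 10291 genes, and the log2 difference was -1.24 ± 0.21 (adjusted p = 0.0054). Next came Cyp51 with controls at 136.5, 214.0 and 324.6 CPM (lowest, median and highest) and mutants at 30.6, 93.0 and 176.1, -0.94 ± 0.25 (adjusted p = 0.0504). Msmo1 followed with 410.9, 497.5 and 714.4 CPM against 182.0, 267.0 and 470.9, -0.74 ± 0.21 (adjusted p = 0.070), and Dhcr7 with 56.4, 73.4 and 86.4 against 30.6, 34.6 and 62.4, -0.65 ± 0.19 (adjusted p = 0.097). The difference was negative for 27 of 30 genes with a median of -0.45 against -0.00523 for all genes, and 13 had an unadjusted p under 0.05, against 12.2% of all genes. The count of 1 rose to 2 with DESeq2 (2.22% of all genes called), 5 without a filter on low counts (1.38%), 2 without control mouse 3 (1.59%), 3 without mutant mouse 5 (1.57%) and 6 without mutant mouse 6 (2.75%). Cyp51 and Acat3 were called in each of these.

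The same division by age was made in the cortex, where 7 genes were called with age as a term, against 3.14% of 8256 genes. Among the older mice 10 of 24 tested genes were lower and 0 higher, against 1.21% of 6439 genes lower, led by Msmo1 (-1.28 ± 0.19, adjusted p = 0.00067), Acat3 (-1.65 ± 0.25), Insig1 (-1.69 ± 0.29) and Cyp51 (-1.53 ± 0.27). In that age group 14 of the 32 genes did not overlap, against 3.15% of 10268 genes. Among the younger mice 0 genes were called, against 0.0782% of 11515 genes, and the genotype by age term called 0 of the 32, against 0.0114% of 8783 genes. These libraries hold few astrocytes, 28 to 73 in all but control mouse 5 and mutant mice 5 and 6. In mice 1 to 4 the median UMIs per astrocyte nucleus were 5823 to 6649 in controls and 7221 to 8716 in mutants, without overlap, and the part of this in the result was not tested. With only the 5 cortical libraries of at least 1500 UMIs per nucleus, those of control mice 2, 5 and 6 and of mutant mice 5 and 6, no older mutant was left. Acat3 then differed by -0.80 ± 0.26 (adjusted p = 0.34). In these few libraries 0 genes were called, a count not read further, since the share of all genes called is not given. Telencephalic markers summed to 901 to 1140 CPM in controls and 375 to 614 in mutants, and Mfge8 differed by -1.35 ± 0.15 (adjusted p = 2.6e-05). Astrocyte markers summed to 15120 to 18348 CPM in controls and 12963 to 17083 in mutants, precursor cell markers to 109.8 to 560.5 and 203.6 to 1085, and microglia markers to 78.2 to 144.6 and 82.1 to 376.4. Neuron markers summed to 547.3 to 1033 and 509.2 to 913.9, oligodendrocyte markers to 409.1 to 618.5 and 362.2 to 654.5, and choroid plexus markers to 12.6 to 102.3 and 11.4 to 1598. The part of these shifts in the result was not tested. Whether the difference between genotypes itself differed between regions was tested without the mouse as a term, although both regions came from the same mice. In astrocytes 0 of the 32 genes passed, as did 0 of 12449 genes.

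Oligodendrocytes, the other class of high level, showed 0 called genes between genotypes with edgeR across all mice and genotype as the only term. In the deep brain 32 genes were tested, against 1.83% of 13404 genes called, and the median difference was -0.0683. Tm7sf2 (0.30 ± 0.12, adjusted p = 0.24), Pmvk (-0.27 ± 0.12, adjusted p = 0.31) and Acaca (0.16 ± 0.08, adjusted p = 0.36) had the smallest p. Scd2 stood at 1591.1 ± 191.2 CPM in controls and 1531.0 ± 258.1 in mutants. In the cortex 0 of 30 genes were called (Acat3 and Mvd were too low), against 0.940% of 10107 genes. Fdft1 had 74.2, 84.0 and 88.7 CPM in controls (lowest, median and highest) and 52.4, 60.01 and 66.9 in mutants, -0.40 ± 0.10 (adjusted p = 0.060). Msmo1 had 88.0, 101.0 and 151.9 CPM in controls and 65.0, 75.4 and 84.3 in mutants, -0.52 ± 0.13 (adjusted p = 0.065). Neither overlapped, against 0.604% of 9430 genes that lay lower without overlap. Scd1 followed with -0.49 ± 0.16 (adjusted p = 0.16). Fdft1 and Msmo1 were called by DESeq2 (2.00% of all genes), Fdft1 and Scd1 without mutant mouse 6 (1.73%), and Fdft1, Msmo1 and Sqle with age as a term (4.07%). Among the older mice 5 genes were lower, Scd1, Msmo1, Fdft1, Scd2 and Sqle, against 1.95% of 10045 genes. That division was drawn from these genes in astrocytes of the same mice, so the count describes it and is no independent evidence. In the cortical oligodendrocyte libraries telencephalic astrocyte markers summed to 34.1 to 46.1 CPM in controls and 17.3 to 27.4 in mutants, without overlap, and astrocyte markers to 303.8 to 479.9 and 215.3 to 411.7. Oligodendrocyte markers summed to 23140 to 26230 CPM in controls 1 to 4 and 19650 to 22630 in mutants 1 to 4, without overlap, and to 18000 to 26230 and 19110 to 22630 over all mice. In mice 1 to 4 the median UMIs per nucleus were 3729 to 4112 in controls and 4871 to 5924 in mutants. The part of these in the result was not tested.

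In precursor cells of the deep brain most differences were positive and none passed the test. Of 30 genes tested 28 had a positive difference, with a median of 0.28 against 0.00215 for all genes, 10 had an unadjusted p under 0.05, against 5.46% of all genes, and 0 were called, against 0.0465% of 10753 genes. Msmo1 had 45.8, 59.2 and 67.1 CPM in controls and 67.8, 72.8 and 95.9 in mutants, 0.44 ± 0.11 (adjusted p = 0.26). Sqle had 35.6, 57.8 and 63.6 CPM in controls and 64.4, 68.7 and 84.7 in mutants, 0.42 ± 0.12 (adjusted p = 0.33). Both lay higher in every mutant library, against 0.139% of 10042 genes. Nsdhl differed by 0.52 ± 0.14 (adjusted p = 0.31) and overlapped. The median share of mitochondrial UMIs was 0.0427 to 0.0881% in controls and 0.0644 to 0.142% in mutants, and its part was not tested. Without a filter on low counts Msmo1 and Fdft1 were called, against 0.378% of 21680 genes. In the cortex 0 of 21 genes were called, as were 0 of 7873 genes, with a median of 0.0727.

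No gene passed the test in neurons of either region. In the deep brain 0 of 32 genes were called, against 0.332% of 19903 genes, with the summed level at 1321.7 ± 150.3 CPM in controls and 1323.3 ± 125.8 in mutants. Acat3 (-0.38 ± 0.14, adjusted p = 0.26), Srebf1 (0.16 ± 0.07, adjusted p = 0.40) and Acaca (0.09 ± 0.05, adjusted p = 0.49) had the smallest p, and Acat3 stayed under 1 CPM. In the cortex the summed level was 1079.5 to 1245.2 CPM in controls and 923.2 to 1042.9 in mutants, without overlap. There 28 of 32 differences were negative, with a median of -0.206 against -0.00121 for all genes, 13 had an unadjusted p under 0.05, against 7.18% of all genes, and 0 were called, against 0.00601% of 16635 genes. Msmo1 had 48.9, 53.0 and 64.0 CPM in controls and 35.2, 38.1 and 44.5 in mutants, -0.45 ± 0.08 (adjusted p = 0.20). Cyp51 had 67.4, 71.4 and 84.8 CPM in controls and 53.2, 56.7 and 61.5 in mutants, -0.33 ± 0.07 (adjusted p = 0.33). With Sqle (-0.41 ± 0.10) and Fdps, which makes farnesyl diphosphate (-0.40 ± 0.10), 4 genes lay lower in every mutant library, against 0.264% of 9851 genes. In the same libraries telencephalic astrocyte markers summed to 51.4 to 61.9 CPM in controls and 45.2 to 60.2 in mutants. Astrocyte markers summed to 450.7 to 627 and 482.2 to 578.6, and neuron markers to 6083 to 6403 and 5894 to 6348. Their part in the result was not tested. With the mouse number as a replicate block Msmo1 was called (adjusted p = 0.036), against 0.0226% of 17687 genes. The labels state no link between mice of a number, and the correlation of same-number libraries (0.114 to 0.82) comes from these data. DESeq2 called Msmo1 and Cyp51 (adjusted p = 0.00033 and 0.0064), against 0.102% of 16635 genes. The difference between regions of the genotype difference, fitted without the mouse as a term, called 0 genes, against 0.152% of 20446 genes.

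Fewer of the genes could be tested in the small classes. In deep brain microglia 0 of 19 were called, against 0.169% of 8871 genes. Acaca had 30.8, 50.8 and 67.6 CPM in controls and 46.1, 92.1 and 145.0 in mutants, 0.89 ± 0.22 (adjusted p = 0.15), and the groups overlapped. It was called by DESeq2 (0.271% of all genes called), without a filter on low counts (0.680%) and without mutant mouse 4 (0.223%). A replicate block called Acaca too (0.405%), but no stated link joins mutants and controls of a number. With a coarser clustering Acaca differed by 0.29 ± 0.10 (adjusted p = 0.59, 0.0667% of all genes called). Sc5d (0.65 ± 0.23, adjusted p = 0.65) and Scd2 (0.24 ± 0.10, adjusted p = 0.72) followed. In cortical microglia 0 of 6 were called (0.487% of 5134 genes), in fibroblasts 0 of 26 (0.00980% of 10205), and in endothelial cells 0 of 3 (0.107% of 2798), mutant mouse 6 having given 17 endothelial nuclei and no level. In fibroblasts Insig2 (-0.38 ± 0.16, adjusted p = 0.54) and Fdps (-0.62 ± 0.28, adjusted p = 0.57) had the smallest p.

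Between regions of control brains, 5 of the 20 genes of sterol synthesis and Srebf2 were lower in astrocytes of the deep brain than of the cortex. Of all 32 genes these 6 were lower and 0 higher, against 6.14% of 11917 genes lower and 4.77% higher. Msmo1 stood at 268.1 to 406.9 CPM in the deep brain and 410.9 to 714.4 in the cortex, without overlap, a log2 difference of -0.70 ± 0.14 (adjusted p = 0.0020). Fdft1 stood at 85.8 to 160.2 and 148.4 to 224.2 CPM, -0.61 ± 0.15 (adjusted p = 0.0099). Sc5d stood at 64.9 to 116.9 and 107.5 to 184.5 CPM, -0.57 ± 0.16 (adjusted p = 0.020). Fdft1 and Sc5d overlapped between regions. Dhcr7 (-0.47 ± 0.13), Sqle (-0.56 ± 0.16) and Srebf2 (-0.41 ± 0.12) were the other 3, and Tm7sf2 (-0.59 ± 0.19, adjusted p = 0.057) and Cyp51 (-0.57 ± 0.20, adjusted p = 0.070) came next. With the mouse as a replicate block 10 genes were called, against 13.0% of 13184 genes, with Cyp51, Tm7sf2 and Hmgcs1 lower in addition and Scd1 higher (0.49 ± 0.15). Leaving out control mouse 1 left 3, against 9.46% of 11942 genes, and a coarser clustering left Msmo1 alone, against 20.1% of 12948. With only the 3 cortical control libraries of at least 1500 UMIs per nucleus, Fdft1, Msmo1 and Srebf2 were called, against 6.61% of 12859 genes. Between the same libraries Mfge8 differed by -1.57 ± 0.14 and Slc1a3, an astrocyte marker, by -0.95 ± 0.14, and their part in the result was not tested.

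In neurons 7 genes were higher in the deep brain and 2 lower, against 18.9% and 17.1% of 19417 genes and 36.0% in all, so the count was near the background. Higher were Pmvk (0.45 ± 0.09), Srebf1 (0.53 ± 0.11), Scd1 (0.50 ± 0.12), Stard4 (0.43 ± 0.13), Fasn, the fatty acid synthase (0.44 ± 0.14), Elovl6 (0.18 ± 0.06) and Acly, which supplies acetyl-CoA (0.28 ± 0.10). Lower were Scap (-0.15 ± 0.05) and Srebf2 (-0.19 ± 0.06). Slc17a6 and Slc17a7, markers of different glutamatergic neurons, differed by 2.34 ± 0.16 and -1.31 ± 0.18 between the same libraries. With the mouse as a replicate block 15 were called, against 39.1% of 20798 genes, and leaving out control mouse 2 left 4 and control mouse 3 left 5, against 27.5% of all genes in both. With the 3 deeper cortical libraries 3 were called, Pmvk, Srebf1 and Srebf2, against 22.4% of 20498 genes. In oligodendrocytes Acaca was called (0.24 ± 0.07, adjusted p = 0.043), against 7.82% of 12629 genes. With the mouse as a replicate block Acaca and Insig1 (0.30 ± 0.09, adjusted p = 0.046) were called, against 10.1% of 13928 genes, and with the 3 deeper cortical libraries 0, against 2.69% of 13838. In the fit without the block Acaca was called with 1 of the 6 control mice left out and not with the other 5, and its difference was -0.04 without a cluster led by Enpp6, a gene of newly formed oligodendrocytes. In precursor cells 0 of 30 were called, against 8.75% of 10747 genes, Lss having the smallest p (-0.51 ± 0.22, adjusted p = 0.19).

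Genes around the pathway were listed with earlier results known. Between genotypes in deep brain astrocytes, where 4.77% of all genes were called, 0 of 12 genes of SREBP regulation and 0 of 13 of precursor supply, elongation, desaturation and myelin lipids were called. Of 7 genes of sterol export and turnover 0 were higher and 1 was lower, Soat1, which esterifies cholesterol, by -0.30 ± 0.08 (adjusted p = 0.043). In the smaller astrocyte cluster Acss2, which makes acetyl-CoA from acetate, was lower (-1.11 ± 0.25, adjusted p = 0.010) and Me1, a source of NADPH, higher (0.63 ± 0.14, adjusted p = 0.0073), where 3.94% of all genes were called. In cortical astrocytes 0 of 9, 0 of 8 and 0 of 4 tested genes of the lists were called, against 1.92% of all genes. The medians over the lists in deep brain astrocytes were 0.0606, -0.177 and 0.036.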

How the data were processed

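Nuclei of deep brain and cortical regions of 6 mutant and 6 control mice were profiled by 5′ droplet RNA sequencing, 24 libraries in all. The authors made the deposited UMI counts with bcl2fastq 2.20.0.422 and Cell Ranger 5.0.1 on mm10, intronic reads included. The counts are raw, per gene and barcode. The 32 genes and the lists of other genes were chosen with earlier results of these data known.

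A nucleus was kept if it had more than 500 and fewer than 7000 genes and its mitochondrial share of UMIs was under 20%, which left 124958 of 127519 barcodes in the deep brain and 79967 of 109705 in the cortex. Pairs of libraries shared 0.284% to 1.99% of their barcodes. Each region was clustered (scanpy 1.11.5, igraph 0.11.9) on 2000 variable genes without the 32 genes or the listed pathway genes, and clusters were named from marker lists. No doublet caller was run, and clusters meeting the lists of several classes stayed unnamed, as did mural cells. A cluster led by Anln and Enpp6 was counted with the oligodendrocytes.

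UMIs were summed per library and class of at least 20 nuclei, filtered with filterByExpr, scaled by TMM and tested with the quasi-likelihood test of edgeR 4.0.16 in R 4.3.3, p-values being adjusted by Benjamini-Hochberg over all genes tested. All p-values are two-sided. Class contrasts used control libraries, with the library as a term. In a comparison the genes with adjusted p under 0.05 were named and, of the others, up to 3 with the smallest p. For a class, those with the largest differences were named, and of the other listed genes those past the threshold. The genes singled out beyond this rule, among them Insig1, Mvd and Msmo1 in the older mice and the flat regulators, were chosen after their values were seen.

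The 2 regions came from the same mice, and in control astrocytes the deviations of a mouse from the group means correlated by 0.119 to 0.384 between regions. Replicate numbers of mutants and controls mark no stated link, and only in cortical neurons did every pair of the same number correlate by more than 0.1 (0.114 to 0.82). Alternatives were DESeq2 1.42.0, other size factors, no filter, other clusterings, a replicate block, deeper cortical libraries, each mouse left out and, chosen after the values were seen, the division by age, age as a term and leaving out the Enpp6-led cluster. The test was checked on simulated counts.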

Additional observations from a re-analysis of the deposited data

Results flagged for a closer look

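In 3 of 174 groups of libraries a single library stood apart from the rest by Dixon's test at the 95% level, where chance gives about 8.7. Acaca in deep brain neurons was at 148.3 CPM in mutant mouse 4, with the nearest other mutant at 167 and the farthest at 175.6. Sqle in cortical oligodendrocytes was at 23.56 CPM in control mouse 1, with the other controls from 43.51 to 52.43. Scap in cortical neurons was at 42.54 CPM in control mouse 1, with the other controls from 46.6 to 48.82.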

How the results depend on the processing

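Counts below are of the 32 genes called. Where the share of all genes called is given neither here nor above, the count is not read further. Between genotypes in deep brain astrocytes 1 was called, against 9 with the replicate block (6.25% of all genes called), 14 in mice 1 to 4, 0 in mice 5 and 6, 8 with age as a term and 1 to 6 with a mouse left out (6 without mutant mouse 5, 2 without mutant mouse 6). In cortical astrocytes 1 was called, against 2 with other size factors (1.96% of all genes called), 2 with DESeq2, 5 without a filter, 8 with the replicate block (3.14%), 0 in libraries of at least 1500 UMIs per nucleus, 10 in mice 1 to 4, 0 in mice 5 and 6, 7 with age as a term and 1 to 6 with a mouse left out (2 without control mouse 3, 3 without mutant mouse 5, 6 without mutant mouse 6). In cortical oligodendrocytes 0 were called, against 2 with DESeq2, 3 with the replicate block (4.75% of all genes called), 5 in mice 1 to 4, 3 with age as a term and 0 to 2 with a mouse left out (2 without mutant mouse 6). In cortical neurons 0 were called, against 2 with DESeq2 and 1 with the replicate block. In deep brain precursor cells 0 were called, against 2 without a filter, and in deep brain microglia 0, against 1 with DESeq2, 1 without a filter, 1 with the replicate block and 0 to 1 with a mouse left out (1 without mutant mouse 4).

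Between regions in control astrocytes 6 were called, against 1 with a coarser clustering, 10 with the replicate block, 3 in libraries of at least 1500 UMIs and 3 to 5 with a mouse left out (3 without control mouse 1). In oligodendrocytes 1 was called, against 0 with no gene held out of the clustering (0 of the 32 and, of the other listed genes, 7 in the deep brain and 3 in the cortex were then among its 2000 variable genes), 2 with the replicate block, 0 in libraries of at least 1500 UMIs and 0 to 1 with a mouse left out. In neurons 9 were called, against 15 with the replicate block, 3 in libraries of at least 1500 UMIs and 4 to 9 with a mouse left out (4 without control mouse 2, 5 without control mouse 3). Between deep brain astrocytes and oligodendrocytes 29 were called, against 15 in mutant libraries. The replicate block moved no other count by more than 1.5 times. The numbers of mutants and controls were not shown to pair them outside cortical neurons, so a call gained or lost with the block there is not read further.

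Values that changed sign were of genes not past the threshold or of Acaca between regions in oligodendrocytes, at -0.036 without the Enpp6-led cluster. In endothelial cells Scd2 was at -0.072 with no gene held out of the clustering and from -0.0231 to 0.1743 with a mouse left out, and Acaca from -0.1144 to 0.1802. The cause of these changes was not tested, except that leaving out mice or libraries also leaves fewer samples. Cortical astrocytes were few, so small differences were not detectable there, and nuclear RNA was measured, not protein or sterol.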
